A study of Mus musculus with 6 samples.

Results

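Peaks of DNA methylation in the last 2 Mb of mouse chromosomes were examined in 6 samples of primary mesangial cells. A peak was counted as distal when its summit lay in the last 2 Mb of an mm9 chromosome, for chromosomes 1 to 19 without chromosome 8, which gave 18 ends. Controls contributed 911, 1111 and 1197 distal peaks, and 1197, 1217 and 1228 came from cells given TGF-β1. Joined where they overlapped by 1 bp or more, they made 2030 distal regions of 170444 regions in all, against 153010 regions in the rest of the same chromosomes.

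The study treated mesangial cells, the contractile support cells of the kidney glomerulus, with the growth factor TGF-β1 and asked how the methylome responds. Both groups of 3 samples came from cells of passages 3 to 6 in 25.5 mM glucose, so the controls share the high glucose. TGF-β1 was given at 10 ng/ml over 72 h, and the controls are labelled only as such. The genotype, the strain and whether the 3 samples of a group were separate cultures were not given in the sources used here, so the p-values measure the spread between these samples, which may be technical. Peak lists hold no expression, and the cell type was not checked against markers.

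In methylated DNA immunoprecipitation (MeDIP), an antibody pulls down sheared DNA that carries 5-methylcytosine, which in most mammalian cells sits at CpG dinucleotides. A stretch without CpGs therefore offers the antibody few targets, and peak numbers follow CpG content as well as methylation. Mouse autosomes have their centromere at one end, so the other, distal end runs through gene-bearing sequence to a telomere made of TTAGGG repeats, which cells use to protect the chromosome tip.

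The reference sequence of 3 regions is printed as an example, 200 bases centred on the mean summit and read on the forward strand of NCBIM37 (mm9). These 3 were not chosen to represent the distal regions as a whole. CpGs are in capitals. The first pair lay in coding exons and were among the 3 distal regions with the most reads, and the last lay upstream of a gene and had one of the small p-values between the groups.
First Gm7120 coding exon, chr13:120281568-120281767: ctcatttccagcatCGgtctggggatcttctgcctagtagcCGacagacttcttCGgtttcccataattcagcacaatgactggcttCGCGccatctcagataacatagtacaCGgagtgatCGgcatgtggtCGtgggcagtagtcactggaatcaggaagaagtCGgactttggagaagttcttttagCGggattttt
Second Gm7120 coding exon, chr13:120283901-120284100: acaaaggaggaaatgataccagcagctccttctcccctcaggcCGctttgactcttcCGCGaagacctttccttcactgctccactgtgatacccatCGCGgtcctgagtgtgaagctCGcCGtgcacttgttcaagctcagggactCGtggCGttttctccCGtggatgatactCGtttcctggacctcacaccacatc
Upstream of Fry, chr5:150919643-150919842: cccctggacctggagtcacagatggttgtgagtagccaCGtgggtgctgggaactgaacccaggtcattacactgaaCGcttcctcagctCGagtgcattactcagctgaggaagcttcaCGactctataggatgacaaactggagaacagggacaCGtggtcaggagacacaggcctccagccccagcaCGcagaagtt
The coding sequences held 10 and 11 CpGs, and the one upstream of Fry held 6. Other distal regions held fewer. A region in an intron of Kcnq1, described below, held 4 in its 200 bases. Some distal summits, among them the one at the tip of chromosome 2, lacked CpGs altogether.

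The peaks rested on 9407103 to 13291419 reads per sample, and every TGF-β1-treated sample had more reads than every control, so that for numbers of peaks depth cannot be told apart from treatment. Control replicate 1 stood apart, at the distal ends as in the rest of the chromosomes. It lacked a peak in 120 distal regions (5.91%) that all 5 other samples had called, against 12 to 48 such regions for the others. In the rest of the chromosomes it lacked 4.87% of regions in this way, against 0.739% to 2.35% for the others. At the end of chromosome 2 it had 34 peaks against 57 to 75 in the others, and at the end of chromosome 7 it had 40 against 64 to 74. Its density relative to the rest of the chromosome was the lowest of the 6 samples at 5 of the 18 ends. It was the highest at the ends of chromosomes 1 and 13, so the shift did not run 1 way. Results are therefore given with all samples and, where they move, without it.

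Distal windows held fewer peaks per Mb than the rest of the same chromosomes. Distal density was 25.3, 30.9 and 33.3 peaks per sequenced Mb in controls and 33.3, 33.9 and 34.2 after TGF-β1. In the rest it was 32.5, 36.1 and 40.1 in controls and 40.8, 40.2 and 42.3 after TGF-β1. The distal value was the lower one in each of the 6 samples. The mean log2 ratio was -0.28 ± 0.048 (SD, n = 6), or 1.22-fold lower (exact two-sided sign-flip test, p = 0.03125, the smallest that 6 samples allow). Distal windows were not poorer in genes. They held 509 protein-coding genes, or 14.2 per Mb, against 8.88 per Mb in the rest, with 42.7% GC against 41.9%. Their CpG content was lower, at 8.11 per kb against 8.48 per kb. Counted per 1000 CpGs, distal windows were still lower by a log2 ratio of -0.22, and when bins of 100 kb were compared within 5 classes of CpG content the ratio was -0.14 (exact sign-flip p = 0.03125 for each). The classes were added after the CpG difference had been seen, and bins within a class can still differ in CpG content. The part of CpG content in the density difference was not tested. Within 5 classes of GC content the ratio was -0.36, and with each chromosome given equal weight it was -0.48 (exact sign-flip p = 0.03125 for each).

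**Figure D1:**
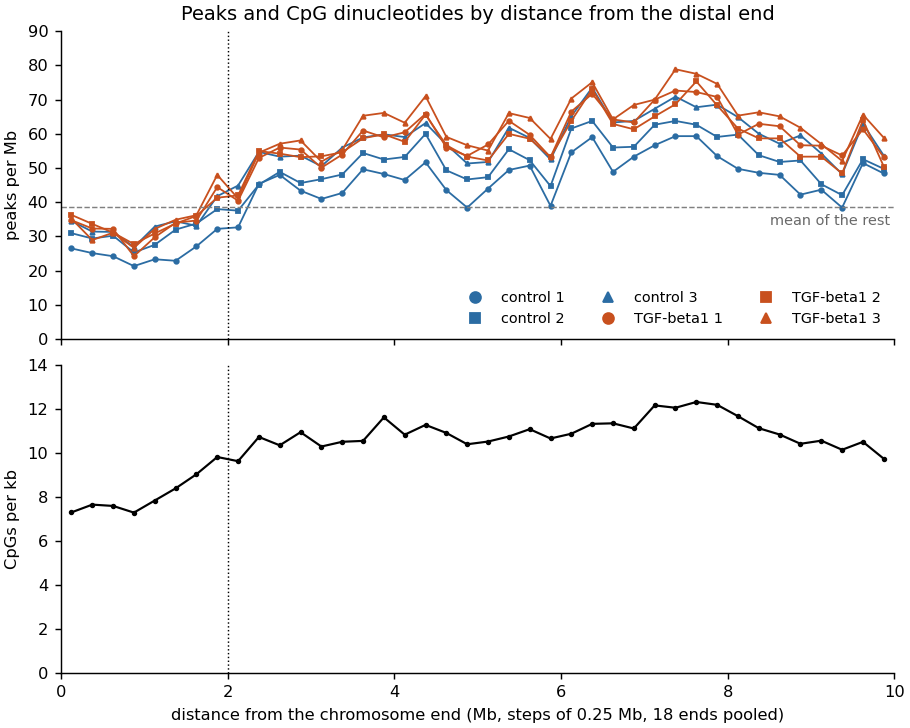
Peak density in peaks per Mb (upper panel, one line per sample, blue for control and orange for TGF-β1, dashed line for the mean of the rest) and CpGs per kb (lower panel) against distance from the distal end in Mb, 18 ends pooled in steps of 0.25 Mb. Left of the dotted line at 2 Mb the mean density lay between 25.4 and 41.0, and right of it between 39.8 and 69.4.

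The low density lay in the last 2 Mb, while the sequence just inside was denser than the mean of the rest. In steps of 250 kb, the mean density over the 6 samples was 25.4 to 41.0 peaks per Mb within the last 2 Mb, and 1 of these 8 steps exceeded the mean of the rest. Between 2 and 10 Mb from the end it was 39.8 to 69.4, and all 32 steps exceeded that mean. The CpG content moved alongside, from 7.28 to 9.81 per kb in the outer steps to between 9.62 and 12.3 per kb in the inner ones. Peaks per 1000 CpGs also differed, with 3.48 to 4.53 in the outer steps and 4.13 to 6.13 in the inner ones.

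Set against these next 8 Mb, a comparison chosen after the profile had been seen, the last 2 Mb were 1.79-fold less dense. The next 8 Mb held 56.8 ± 5.56 peaks per Mb and the last 2 Mb 31.8 ± 3.37 (SD, n = 6), a log2 ratio of -0.84, which is a description of what prompted the comparison and carries no test. Counted per 1000 CpGs the ratio was -0.41. Of the 18 ends, 15 were lower than their next 8 Mb in all 6 samples, 0 were higher in all 6, and the ends of chromosomes 2, 7 and 11 were mixed. A wider window turned the direction of the first comparison: the last 5 Mb were denser than the rest, by a log2 ratio of 0.21 (exact sign-flip p = 0.03125). The distal windows were also lower than the first 2 Mb of sequenced bases beside the centromere, with a log2 ratio of -0.35 (exact sign-flip p = 0.03125).

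The 18 ends differed from each other far more than samples did. Their mean log2 ratio to the rest of their own chromosome ran from -2.24 to 0.87 with an SD of 0.753 over the ends, while the SD over samples at one end was 0.049 to 0.269. At 11 ends the ratio was below 0 in all 6 samples, at the ends of chromosomes 5, 11, 15 and 16 it was above 0 in all 6, and at those of chromosomes 2, 4 and 7 it was mixed.

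**Figure D2:**
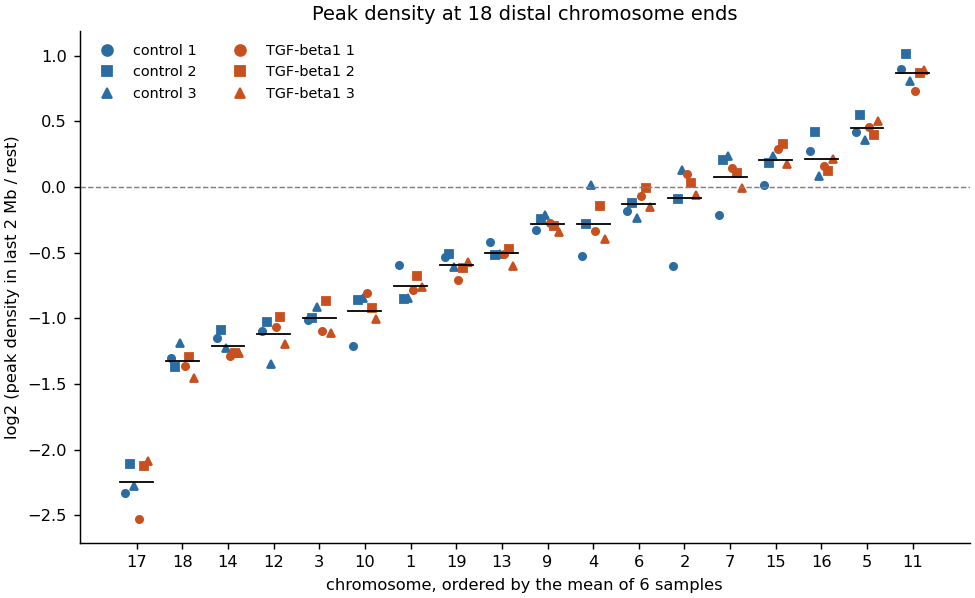
Log2 ratio of peak density in the last 2 Mb to the rest of the same chromosome for 18 ends, ordered by the mean (black bar), with one point per sample (blue for control, orange for TGF-β1, shapes for replicates). The end of chromosome 17 lies at -2.24 and that of chromosome 11 at 0.87, and the groups overlap at every end but that of chromosome 14.

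Chromosome 11 had the densest end. Its window held 134, 166 and 166 peaks in controls and 154, 169 and 178 after TGF-β1, 1.82-fold above the rest of the chromosome, in 266 regions of which 70 were called in all 6 samples. This end carries 69 protein-coding genes and 13.5 CpGs per kb. Chromosome 5 came next, and its end held 111, 132 and 130 peaks and, after TGF-β1, 136, 130 and 147, 1.36-fold above its chromosome, although it has 12 genes and 9.78 CpGs per kb. Chromosome 16 ranked after it, at 1.16-fold with 19 genes and 7.51 CpGs per kb, but its last 1 Mb lay below its chromosome (log2 ratio -0.16).

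Chromosome 17 had the sparsest end, 4.73-fold below its chromosome. It held 18, 23 and 23 peaks in controls and 19, 25 and 27 after TGF-β1, with 3 genes and 4.64 CpGs per kb. On chromosome 18 the end was 2.51-fold below its chromosome, with 6 genes and 5.18 CpGs per kb. On chromosome 14 it was 2.32-fold below, also with 6 genes and with 5.30 CpGs per kb, although its last 5 Mb lay above its chromosome (log2 ratio 0.53). All 3 sparse ends were poor in both genes and CpGs. The order did not follow gene number throughout: chromosome 10 has 87 protein-coding genes at its end, the most of the 18, and was 1.92-fold below its chromosome there at 6.55 CpGs per kb.

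Across the 18 ends, the log2 density ratio followed the log2 ratio of CpG content to the rest of the chromosome (Pearson r = 0.819, Spearman correlation 0.878). These are descriptions across chromosome ends that share the same 6 libraries, and the same kind of relation held over all 1137 windows of 2 Mb (Pearson r = 0.847 and Spearman correlation 0.889 between density and CpGs per kb). Chromosome 4 departed from this: its end was the richest in CpGs at 15.4 per kb and held 61 genes, yet its density was 1.21-fold below its chromosome, although its last 1 Mb lay above (log2 ratio 0.29). Its peaks numbered 40, 54 and 75 in the controls and 57, 65 and 56 after TGF-β1. Density was lower at 11 of the 12 ends poorer in CpGs than their chromosome, the exception being chromosome 16, and 4 of the 6 ends richer in CpGs were denser on average.

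**Figure D3:**
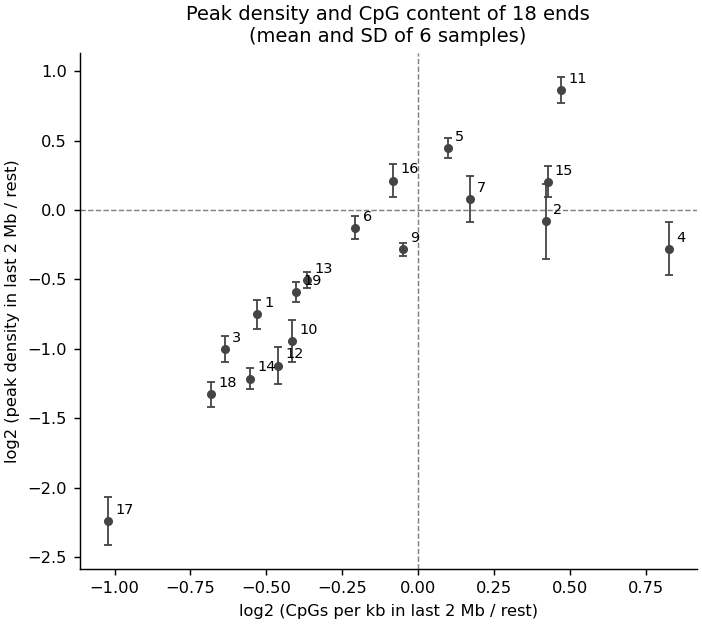
Log2 ratio of peak density (vertical axis, mean and SD of 6 samples) against the log2 ratio of CpGs per kb (horizontal axis), each of the last 2 Mb to the rest of the chromosome, for 18 ends labelled by chromosome. The points rise from chromosome 17 at the lower left to chromosome 11 at the upper right, and chromosome 4 lies at the far right below 0.

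Peaks in the distal windows lay more often in coding exons and less often in introns than peaks elsewhere. Coding exons held 12.8% ± 1.72 of distal peaks and 8.22% ± 1.09 of the others, and introns 33.5% ± 0.831 and 40.5% ± 0.706 (SD, n = 6), each in the same direction in 6 of 6 samples (exact sign-flip p = 0.03125). Coding exons also make up more of the distal sequence, 2.21% of its bases against 1.43%, so the density within each element was compared as well. All 6 elements had fewer peaks per Mb in the distal windows, in 6 of 6 samples each (exact sign-flip p = 0.03125, and 0.03125 after adjustment over the 6 elements). Coding exons held 186 ± 38.6 peaks per Mb of coding sequence distally and 224 ± 40.8 in the rest, or 1.21-fold fewer. The gap was 1.55-fold for introns, 1.62-fold for the 2 kb upstream of genes, 1.60-fold for the 2 kb downstream, 1.36-fold for untranslated exons and 1.08-fold for intergenic sequence. The rise in the coding share thus came with a lower density in coding exons and a still lower one in introns.

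**Figure D4:**
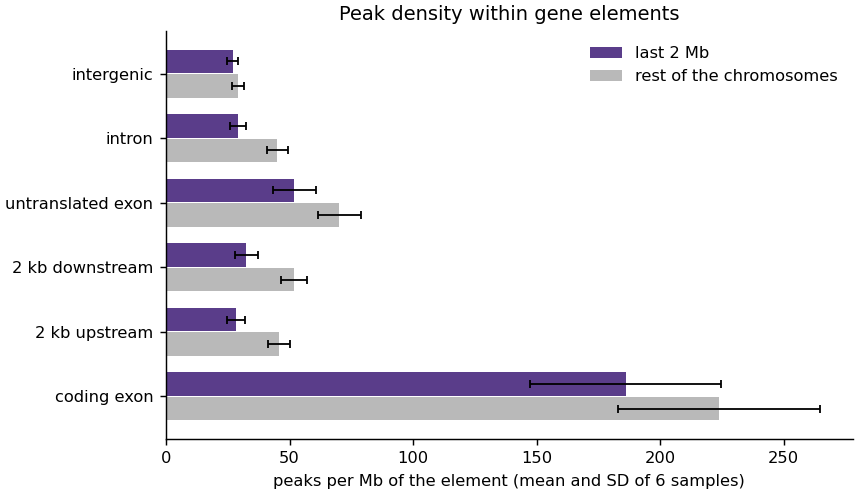
Peaks per Mb of each gene element in the last 2 Mb (purple) and in the rest of the same chromosomes (grey), as the mean and SD of 6 samples. Every purple bar is shorter than its grey neighbour, from 27.0 against 29.1 in intergenic sequence to 186 against 224 in coding exons.

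In size and height, distal peaks were close to those elsewhere. Their median length was 338, 340 and 354 bp in controls and 350, 347 and 358 bp after TGF-β1, 1.83 bp more than in the rest on average and longer in 6 of 6 samples (exact sign-flip p = 0.03125). With only peaks of at least 5-fold enrichment the difference was 0.333 bp (exact sign-flip p = 0.8125). Median summit pileup, the number of extended reads stacked on the summit scaled to the total reads of the sample (RPM), was equal on both sides in 5 samples and lower distally in TGF-β1 replicate 3 (mean difference -0.013 RPM, exact sign-flip p = 1). Median fold enrichment over the local background was 6.43 ± 0.214 distally and 6.22 ± 0.0970 in the rest (SD, n = 6), higher in 6 of 6 samples (exact sign-flip p = 0.03125). Summits held 8.70 ± 0.300 CpGs in 300 bp distally and 8.52 ± 0.253 elsewhere, also higher in 6 of 6 (exact sign-flip p = 0.03125).

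Sharing between samples did not differ beyond its spread. Of the 2030 distal regions, 473 (23.3%) were called in all 6 samples and 553 (27.2%) in 1, against 24.1% and 27.4% in the rest. Distal regions called in 1 sample had a median length of 294 bp and a median pileup of 1.30 RPM, and those called in all 6 a median length of 511 bp and a median pileup of 2.28 RPM. Of the peaks of a sample, 42.3% ± 5.24 lay in regions called in all 6 samples distally and 43.5% ± 4.45 in the rest (SD, n = 6), a difference of -1.26 points (exact sign-flip p = 0.125). Without control replicate 1 that difference was 0.006 points. In the last 1 Mb it was positive, at 2.87 points (exact sign-flip p = 0.03125).

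Several of the highest distal regions lay at chromosome tips. Of the 10 with the highest mean pileup, 4 lay within 6.2 kb of an end, 3 of them on chromosome 13 and 1 on chromosome 2. The region of 120277527 to 120278907 on chromosome 13 lies 944 bp upstream of 3110070M22Rik and was the highest at 15.5 RPM. Its pileup was 99, 169 and 222 reads in controls and 206, 204 and 185 after TGF-β1, with control replicate 1 far below the other 5. Its summit held 2 CpGs in 300 bp, and 76 of the 152 stretches of 49 bases there, the length of a read, occurred once in the assembly.

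The other pair on chromosome 13 lay in the Gm7120 coding exons printed above, a predicted protein-coding gene. The first exon's region, 120281442 to 120281893, had 167, 153 and 180 reads in the controls and 183, 173 and 192 after TGF-β1. The second exon's region, 120283694 to 120284262, had 75, 175 and 194 reads and, after TGF-β1, 196, 175 and 166. Control replicate 1 was again the lowest in the second region and not in the first. All 152 stretches of 49 bases occurred once in the assembly in both. Fold enrichment over the local background was 6.33 and 9.31 on average, against 25.6 at the highest region of chromosome 9 described below.

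**Figure D5:**
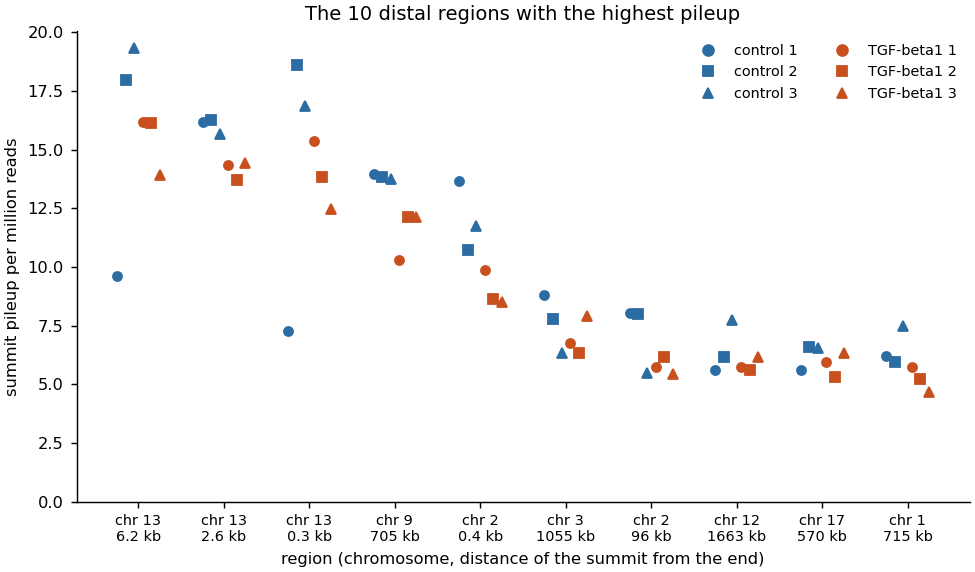
Summit pileup in RPM (vertical axis) in the 10 distal regions with the highest mean, labelled by chromosome and distance of the summit from the end, with one point per sample (blue for control, orange for TGF-β1, shapes for replicates). The 3 regions at the tip of chromosome 13 average 14.1 to 15.5, with control replicate 1 low in 2 of them, and the others range down to 5.88.

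The region at the tip of chromosome 2 had few stretches found once. Its mean summit lay 0.422 kb from the end, and it had 141, 101 and 135 reads in controls and 126, 109 and 113 after TGF-β1. Scaled to depth these were 13.7, 10.7 and 11.7 RPM in controls and 9.88, 8.63 and 8.50 RPM after TGF-β1, without overlap. Fold enrichment was 21.3 on average and overlapped between the groups, and the summit held 0 CpGs in 300 bp. Of its 152 stretches of 49 bases, 9 occurred once in the assembly and the median occurred 680 times, although the study kept uniquely mapped reads only. How such reads were placed here was not tested.

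A run of 3 TTAGGG units, on either strand within the 300 bp around the summit, was found in 2 of 2030 distal regions (0.0985%) and in 19 of 153010 in the rest (0.0124%). The sequence itself held 1.25 such runs per Mb distally and 0.193 in the rest. These 2 were the last regions of chromosomes 2 and 18, and the one on chromosome 18 was called in 5 samples with 17, 12 and 24 reads in the controls and 16 and 21 in TGF-β1 replicates 1 and 2. Of the 18 ends, 4 held at least 3 units in their last kb, those of chromosomes 2, 5, 11 and 18, and 5 ends had any called region there, those of chromosomes 2, 10, 11, 13 and 18.

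Away from the tips, the highest region lay in an untranslated exon of Lars2 on chromosome 9, the gene of mitochondrial leucyl-tRNA synthetase, at 123370860 to 123371365. It had 144, 130 and 158 reads in controls and 131, 153 and 161 after TGF-β1, the highest mean fold enrichment of the 10 at 25.6, and 15 CpGs in 300 bp. Of its 152 stretches of 49 bases, 101 occurred once in the assembly and the others up to 4 times. The remaining 5 had means of 5.88 to 7.32 RPM. They lay in an intron of Plxna2, a semaphorin receptor, and in intergenic sequence nearest to Lrrc7, Polr3k, Sp4 and Mettl4. Of the 152 stretches of 49 bases at each, 43 occurred once in the assembly at Plxna2, 85 near Lrrc7, 152 near Polr3k, 46 near Sp4 and 0 near Mettl4.

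Summits without any CpG in 300 bp were rare. They were 31 of 2030 distal regions (1.53%) and 1.14% of the regions in the rest. Among regions called in all 6 samples they were 8 of 473 (1.69%) and 0.366%.

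Fry, the gene of a large microtubule-binding protein on chromosome 5, had the most shared regions of the distal genes. Within its body and 2 kb on each side it held 51 regions, 15 of them called in all 6 samples, with 27, 32 and 33 peaks in controls and 35, 32 and 36 after TGF-β1. Dscam, a neuronal cell adhesion gene on chromosome 16, held 28 regions with 8 in all 6 samples. Tbcd, a tubulin folding cofactor at the dense end of chromosome 11, held 21 with 8. Shank2, a postsynaptic scaffold gene, held 39 regions with 5 in all 6, and Stard13, a gene of the START domain family, held 22 with 5. The next 5 genes, Igsf5, Dok6, Bahcc1, Plxna2 and Kl, held 6 to 14 regions each with 4 or 5 in all 6 samples. Kl encodes klotho, a co-receptor for a phosphate-regulating hormone in the kidney, and had 4, 5 and 5 peaks in the controls and 4 in every treated sample. Fry, Kl and Stard13 all lie at the end of chromosome 5. This ranking is not scaled to gene length. Fry spans 379 kb, Dscam 579 kb and Shank2 423 kb, against a median of 9.78 kb over the distal genes. Per kb, Dscam (0.048 regions), Plxna2 (0.045) and Dok6 (0.028) lay below the distal median of 0.068. The other genes named here lay above it, and the part of length in the ranking was not tested.

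Of the 509 distal genes, 332 (65.2%) had a region and 132 (25.9%) a region called in all 6 samples, against 75.4% and 43.3% of the 19827 genes in the rest. Distal genes were shorter, with a median of 9.78 kb against 15.7 kb, and held a median of 0.068 regions per kb against 0.099. The lower share of genes with a region therefore went together with shorter genes, and the part of length in it was not tested.

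Gene clusters at single ends differed in how many genes had a region called in all 6 samples. Among all distal genes, the shares were 65.2% with a region and 25.9% with one called in all 6 samples. The HoxC cluster on chromosome 15, which sets position along the body axis, had a region at 7 of its 9 genes and one called in all 6 samples at 6, while Hoxc12 and Hoxc13 had none. Hoxc4 held 4 regions with 3, 4 and 4 peaks in controls and 3, 4 and 3 after TGF-β1. The type II keratins of the same end and the neighbouring Krt18 had a region at 12 of 15 distal genes, but one called in all 6 samples only at Krt6b, whose own peaks in control replicates 1 and 3 lay outside the gene. Beside these shares, the counts come from lists of a few neighbouring genes that can share a region, and they were not tested.

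At the end of chromosome 7, 1 of 12 distal genes of the Kcnq1 domain had a region called in all 6 samples. In the other cluster, around Ccnd1, it was 2 of 10, near the 25.9% of all distal genes given above. In the imprinted domain around Kcnq1, 8 of 12 distal genes had a region, near the 65.2% of all distal genes. Nadsyn1 alone had one called in all 6 samples. Cdkn1c, a cell cycle inhibitor expressed from the maternal copy, had 1 region, with a peak at the gene in all 3 controls and in TGF-β1 replicate 2. Phlda2, Nap1l4, Tnfrsf26 and Mrgprg had none. Kcnq1 itself starts outside the window and held 9 regions with 3 in all 6 samples. In the neighbourhood of Ccnd1, the cyclin D1 gene, 6 of 10 genes had a region, Shank2 and Ppfia1 had one in all 6 samples, and the growth factor genes Fgf3, Fgf4 and Fgf15 as well as Fadd had none. Ccnd1 had 1 region, with a peak at the gene in control replicate 3 and in all 3 treated samples.

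Genes with roles in signalling and matrix at the ends of chromosomes 2 and 4 had few shared regions. Over the whole of these ends, 13.6% and 16.5% of regions were called in all 6 samples, against 23.3% of all distal regions. Of all distal genes, 65.2% had a region and 25.9% one called in all 6 samples, at a median of 0.068 regions per kb. The list medians were 0.045 regions per kb on chromosome 2 and 0.094 on chromosome 4. On chromosome 4, 11 of 14 distal genes had a region and Mib2, a ubiquitin ligase of the Notch pathway, alone had one in all 6 samples. Ski, a repressor of TGF-β signalling, held 6 regions, with 1, 2 and 4 peaks in controls and 3, 3 and 1 after TGF-β1, so that the groups overlapped. On chromosome 2, 11 of 18 genes had a region and Dido1 alone had one in all 6. Lama5, which encodes a laminin chain of the glomerular basement membrane, held 8 regions, with 1, 2 and 4 peaks in the controls and 6, 4 and 4 after TGF-β1. The groups touched at 4 peaks, and control replicate 1, the lowest, was also low over the whole end of chromosome 2.

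The design then asks whether TGF-β1 changed the distal peaks. Distal density averaged 29.9 ± 4.08 peaks per Mb in controls and 33.8 ± 0.437 with TGF-β1 (SD, n = 3 each), a difference of 3.92 (exact two-sided permutation test, p = 0.2, where 3 against 3 samples allow 0.1 at the smallest). Without control replicate 1 the difference was 1.67. Density in the rest was higher after TGF-β1 too, 41.1 ± 1.08 against 36.3 ± 3.796, and the treated samples had more reads. The log2 ratio of distal to rest, in which each sample's peak total cancels, was -0.28 ± 0.070 in control and -0.28 ± 0.031 in treated samples, a difference of 0.0019 (exact permutation p = 1). The median distal length was 344 ± 8.72 bp and 352 ± 5.69 bp (exact permutation p = 0.3). Of distal peaks, 80.8% ± 2.58 in control and 83.7% ± 2.59 in treated samples overlapped a peak of another replicate of the group (exact permutation p = 0.3).

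Median distal pileup in RPM was 1.84, 1.91 and 1.83 in controls and 1.65, 1.66 and 1.66 after TGF-β1. The groups did not overlap (difference -0.21, exact permutation p = 0.1, the smallest possible). In the rest of the chromosomes it was 1.86 ± 0.046 and 1.68 ± 0.044 (SD), and the treated samples were deeper throughout, so treatment cannot be told apart from depth here.

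Region by region, 0 of the 473 distal regions called in all 6 samples passed an adjusted p below 0.05 in limma, and so did 0 of all 41744 such regions (0%). The smallest adjusted p of a distal region was 0.999. At an unadjusted p below 0.05, 8 distal regions (1.69%) were higher after TGF-β1 and 9 (1.90%) lower, against 1.96% and 2.22% of all regions tested. The median log2 fold change was -0.0089 in the distal regions and -0.0047 over all, with distal extremes of -0.52 and 0.63, and both shares lay below the background. Scaled by reads instead of medians, 2 of the 473 were higher and 29 lower, against 0.508% and 5.72% of all regions tested.

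The smallest p-values among the higher regions belonged to an intron of Kcnq1, a voltage-gated potassium channel gene, and to intergenic regions near Emx2 and Sp8, both genes of developmental transcription factors. The Kcnq1 region had 11, 12 and 15 reads in the controls and 23, 24 and 21 after TGF-β1. In RPM it was 1.07, 1.28 and 1.30 against 1.80, 1.90 and 1.58, and the groups did not overlap (log2 fold change 0.63 ± 0.21, SE). The region 123430 bp from Emx2 had 18, 25 and 25 reads and, after TGF-β1, 40, 32 and 47 (log2 fold change 0.58). In RPM its groups overlapped, with a highest control of 2.66 and a lowest treated sample of 2.53. The region 88144 bp from Sp8 had 18, 22 and 24 reads against 41, 32 and 32 (log2 fold change 0.49). These 3 were chosen for their small p, so a separation of the groups adds no support. They rest on 11 to 47 reads per sample, and limma gave each an adjusted p of 0.999.

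Among the lower regions, the region at the tip of chromosome 2 came first, with a log2 fold change of -0.33 ± 0.12 (SE) and the read numbers given above. The region upstream of Fry had 51, 43 and 47 reads in the controls and 36, 43 and 42 after TGF-β1 (log2 fold change -0.44), or 4.94, 4.57 and 4.09 RPM against 2.82, 3.40 and 3.16 RPM. A region 61257 bp from Wls, which encodes a carrier of secreted Wnt proteins, had 31, 36 and 32 reads against 25, 24 and 33 (log2 fold change -0.51). Scaled to depth it was 3.00, 3.83 and 2.78 RPM against 1.96, 1.90 and 2.48 RPM. The 3 regions were chosen for their small p, so lower values in every treated sample once scaled to depth add no support. Scaling by reads also placed 5.72% of all tested regions lower and 0.508% higher at an unadjusted limma p below 0.05. Fold enrichment overlapped between the groups at the tip of chromosome 2 and near Wls, and not upstream of Fry. The adjusted limma p was 0.999 for each. Fitted on fold enrichment instead, a choice made after seeing the data, the log2 changes were -0.07, -0.28 and -0.30.

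Peaks present in one group alone were few, here as over all regions. Every treated sample and 0 controls called 15 distal regions (0.739%), against 0.948% of all regions. The reverse held for 4 regions (0.197%), against 0.233% of all. The 15 lay at 11 ends and had pileups of 13 to 32 reads, and the 4 lay at the ends of chromosomes 4 and 16 with 10 to 19 reads, where the lowest pileup any list called was 8 to 10. The highest of the 15 were in an intron of Fry with 23, 21 and 32 reads, 47.5 kb from the end of chromosome 1 with 22, 25 and 28, and near Ripk4, a protein kinase gene of chromosome 16, with 31, 17 and 23. The highest of the 4 were in introns of Dscam with 19, 15 and 17 reads, of Igsf5 and the overlapping Pcp4 with 16, 14 and 16, and of Rer1 with 14, 15 and 17. A region absent from a list may still hold reads below its threshold.

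At single ends, the ratio of distal to rest in every treated sample lay above every control at 0 of 18 ends and below every control at 1, that of chromosome 14. Over all windows of 2 Mb these shares were 3.52% and 3.78%. At the end of chromosome 14 the log2 ratio was -1.16 in control and -1.27 in treated samples, from 29, 32 and 32 peaks and 31, 31 and 33 peaks, and 1 of 18 ends is near the background.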

How the data were processed

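MeDIP-seq peak lists of 3 control and 3 TGF-β1-treated samples were used. Groups and replicate numbers came from the labels. Per the methods and the file headers, the authors mapped reads of 49 bases to mm9 with BWA, kept unique reads without duplicates and called peaks in each sample with MACS2 (version 2.1.0.20150731), a q cutoff of 0.01, a regional background of 10000 bp and no input. Pileup was deposited as a signal, the count of extended reads at the summit before any depth scaling. Fold enrichment was deposited as a ratio to the local background, and p- and q-values were deposited as -log10.

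Positions were used as deposited. Genome and annotation were NCBIM37, the same assembly as mm9, and GENCODE vM1. Density was counted per sequenced base, gene elements were assigned at summits from protein-coding transcripts, and a gene was its body with 2 kb on each side. Within-sample differences were tested by exact sign flips of the 6 values, groups by exact permutation over 20 assignments. Regions called in all 6 samples genome-wide were tested with limma 3.58.1 (R 4.3.3, trend, Benjamini-Hochberg) on log2 of the highest pileup, centred on the median of each sample. A test on simulated data used changes larger than any seen in the distal regions, so it cannot show how often smaller ones are found. Other steps used Python 3.11.15. The members and lists were chosen with earlier results of these data known. Named were the 10 highest shared regions, the 3 smallest limma p and 3 highest group-only regions per direction, the 3 highest and lowest ends, the 10 genes with most shared regions, and lists of neighbouring genes, of which some items are not reported here.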

Additional observations from a re-analysis of the deposited data

How the results depend on the processing

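Results that changed direction or side did so mainly with the width of the window and the peak threshold, and the cause was not tested. With the last 5 Mb, the log2 density ratio became 0.212 to the rest and 0.226 to the centromeric end, the length difference 1.33 bp, the pileup difference 0.0872, the share in regions called in all 6 samples -1.92 points, the intergenic share -2.21 points, and 68 and 16 regions were called in treated or control samples alone. With the last 1 Mb, pileup became 0.0145, the share in regions called in all 6 samples 2.87 points, the ratio between groups -0.028, and the regions of one group alone 5 and 0. With fold enrichment of at least 5, length became 0.333 bp, the all-sample share 0.044 points, the ratio between groups -0.0047 and the treated-only count 9. With -log10 q of at least 5, length became 1.67 bp and the ratio between groups -0.0063, and with chromosomes weighted equally it was -0.00070, while the distal-to-rest ratio moved from -0.28 to -0.48. Fold enrichment in place of pileup gave 0.212. Ends changed sign at 1 Mb on chromosomes 2 (0.067), 4 (0.29), 6 (0.11), 13 (0.10), 15 (-0.16) and 16 (-0.16), at 5 Mb on 1 (0.28), 6 (0.83), 9 (0.50), 10 (0.31), 14 (0.53) and 19 (0.61), and per 1000 CpGs on 6 (0.079), 7 (-0.090) and 15 (-0.22). Leaving out 1 sample leaves 5 within-sample pairs, whose smallest p is 0.0625, so no such test could pass. The ranges were -0.296 to -0.268 for density to the rest, -0.356 to -0.330 to the centromeric end, -0.852 to -0.822 to the next 8 Mb, 0.163 to 0.206 for CpGs, 1.4 to 2 bp for length, -0.0150 to 0 for pileup and -2.16 to 0.0062 points for the all-sample share (highest without control replicate 1). Shares of elements ranged from 0.306 to 0.450 points downstream, 0.275 to 0.425 upstream, 4.48 to 4.86 in coding exons, 0.746 to 1.46 in intergenic sequence, -7.17 to -6.82 in introns and 0.331 to 0.417 in untranslated exons. Between groups they were 1.67 to 5.65 for density, -0.0363 to 0.0324 for the ratio, 4.5 to 12.7 bp for length and -0.222 to -0.179 for pileup. Sharing ranged from -10.5 to 19.8 points and one-group regions from 27 to 49 and 7 to 24, by construction, since a group of fewer samples asks for fewer partners or calls. limma made 0 calls throughout. With the replicate block, density differed by 3.92 (exact sign-flip p = 0.25, the smallest possible), limma made 0 calls with 14 regions at an unadjusted p below 0.05, and no call changed. Same-numbered samples had deviations correlated at -0.0464, 0.0432 and -0.130. Whether they were paired in the experiment was not given in the sources used here. The CpG classes, the mean pileup, the runs without chromosome 11 or 17, the next 8 Mb and limma on fold enrichment were chosen after seeing the data. Counts below the calling threshold are not in the lists, which limits every statement on absence.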

Other observations

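Between the last called region and the chromosome end, the distance of the summit ran from 0.312 kb on chromosome 13 to 104 kb on chromosome 14, with a median of 10.8 kb over the 18 ends. The longest stretch without any region had a median of 212 kb. After the 1381 bp region of chromosome 13, the longest distal regions lay in an intron of Grk5, a kinase of G protein-coupled receptors, at 1361 bp, and in a coding exon of Suox, the sulfite oxidase gene, at 1233 bp. The Grk5 region was called in every sample but control replicate 1, with 41 and 51 reads in the other controls and 29, 44 and 37 after TGF-β1.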
